A study of Mus musculus with 12 samples.

Results

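The 10 genes described here are the transcription factor gene Nfe2l2, which encodes NRF2, its repressor gene Keap1, and 8 genes known as NRF2 targets or partners. These are Sqstm1, Slc7a11, Gclc, Gclm, Gstm1, Txnrd1, Prdx1 and Srxn1. They were picked by symbol from the 25230 genes of the deposited table, and all 10 passed the filter on low values of at least 1 TPM (a transcript level scaled by gene length and to the same total in each library) in at least 3 libraries. The cells were bone marrow derived macrophages of mice of the Piezo1 KO or the WT genotype, differentiated in culture with M-CSF, and their polyadenylated RNA was sequenced. Piezo1 encodes a cation channel that opens under mechanical force, and Candida albicans is a fungus that macrophages take up. The 4 groups were Piezo1 KO cells with C. albicans, Piezo1 KO cells with PBS, WT cells with C. albicans and WT cells with PBS, with 3 libraries each.

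The labels give neither the Piezo1 allele nor a Cre driver, nor the age of the mice, the strain of the fungus, its dose or the length of exposure. By title, the knockout PBS libraries received DMSO, although their treatment is labelled PBS, so a solvent that only these libraries received cannot be told apart from the genotype or the treatment in any comparison that uses them. Nothing says that the 3 libraries of a group came from separate animals or cultures, so p-values measure the spread between these libraries, which may be technical.

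Reads in genes ran between 16400119 and 25741091 per library. Piezo1 itself stood at 62.4 to 67.5 TPM in the 6 knockout libraries, against 130.4 to 146.9 TPM in the 6 WT libraries, with a log2 fold change of -1.06 under C. albicans and -1.03 with PBS. The deleted stretch is not named, and reads from the rest of the gene would still be counted. All 8 macrophage markers were present. Lyz2 stood at 8948 to 9482 TPM in knockout libraries, against 15460 to 19960 TPM in WT libraries, while the other 7 summed to 6395 to 6675 TPM in knockout and 6315 to 6688 TPM in WT libraries. That sum hides opposite differences. With PBS, mean Cd68 was 3079 TPM in the knockout and 2486 TPM in WT, and mean Adgre1 941.7 and 1181 TPM. By the test used below, 1 of the 8 was higher and 4 lower in the knockout with PBS, against 6.14% and 26.2% of all genes. With C. albicans 3 were higher and 5 lower, against 12.4% and 27.5%. The 7 neutrophil markers summed to 3.06 to 5.63 TPM in knockout and 2.11 to 8.07 TPM in WT libraries, with Ly6g and S100a9 at 0, and the 3 erythroid markers were at 0. The part of these differences in the results was not tested.

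One WT library with C. albicans, replicate 1, differed from the other 2 of its group. Over 7477 genes of at least 10 TPM on average, the SD of its log2 difference was 0.2008 and 0.1996 to its own replicates, against 0.107 to 0.142 between the other replicate pairs. It lay below both of its replicates in 8 of the 10 genes, where 27.4% of the 7477 genes did so, and above both in the other 2, Nfe2l2 and Gstm1, where 56.5% did so. It also widens the spread shared by comparisons that do not contain it, so values without it are given beside the results it touches.

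NRF2 is a transcription factor of the bZIP family that pairs with small MAF proteins and binds antioxidant response elements. In resting cells KEAP1 holds it for ubiquitination and breakdown, and electrophiles or oxidants that modify KEAP1 let NRF2 build up. Its targets serve 2 thiol systems, in which thioredoxin is reduced by thioredoxin reductase and glutathione is made from cystine-derived cysteine. Macrophages use both against the oxidants that they make themselves when they take up microbes. Since NRF2 is controlled mainly as a protein, the level of its mRNA is not a measure of its activity.

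Promoters of 9 of the 10 genes were matched in the RefSeq promoter table of GRCm38.p6 (the assembly of the mm10 build), as 12 windows of 250 bases before to 50 after a gene start. They were searched on both strands for the core of the antioxidant response element, TGACNNNGC, which was found in 5 of the 9 genes. Counted the same way, with a match in any window of a gene, 3781 of the 27025 genes in the table hold it, or 14% (12.4% of its 32851 promoters). The AP-1 motif TGANTCA was found in 2 of the 9, Prdx1 and Srxn1, and in 8.97% of all genes. The motif TGATGNAA, bound by ATF4 with C/EBP proteins in amino acid starvation, was found in Slc7a11 alone of the 9 and in 4.51% of all genes. A match is a run of letters and not a measured binding site.

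The 4 windows below are shown because Slc7a11 had the largest rise in WT macrophages among the 10 genes, while Prdx1, Srxn1 and Gclm rose in WT macrophages and did not pass the test in knockout macrophages. Txnrd1, Sqstm1 and Gclc also rose in WT and did not pass in the knockout, but are not printed. Gclc had no window and that of Sqstm1 held no match, whereas all 4 printed windows hold matches. The printed windows are written 5′ to 3′ on the strand of the gene, with motif matches in capitals. Slc7a11 lies on the minus strand at chr3:50443564-50443863, Prdx1 on the plus strand at chr4:116685349-116685648, Srxn1 on the plus strand at chr2:152105274-152105573 and Gclm on the plus strand at chr3:122245307-122245606.
Slc7a11: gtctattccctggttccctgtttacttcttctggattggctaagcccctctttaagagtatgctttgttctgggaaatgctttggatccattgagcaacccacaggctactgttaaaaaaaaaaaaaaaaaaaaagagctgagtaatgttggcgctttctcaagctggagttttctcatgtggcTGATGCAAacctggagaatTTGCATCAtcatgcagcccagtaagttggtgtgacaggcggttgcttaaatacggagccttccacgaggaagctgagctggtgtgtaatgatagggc
Prdx1: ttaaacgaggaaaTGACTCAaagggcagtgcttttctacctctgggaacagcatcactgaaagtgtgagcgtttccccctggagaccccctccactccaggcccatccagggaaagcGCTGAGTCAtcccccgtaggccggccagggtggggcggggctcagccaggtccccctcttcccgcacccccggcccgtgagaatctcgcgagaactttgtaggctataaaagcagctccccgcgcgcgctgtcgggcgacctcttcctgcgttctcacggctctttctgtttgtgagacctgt
Srxn1: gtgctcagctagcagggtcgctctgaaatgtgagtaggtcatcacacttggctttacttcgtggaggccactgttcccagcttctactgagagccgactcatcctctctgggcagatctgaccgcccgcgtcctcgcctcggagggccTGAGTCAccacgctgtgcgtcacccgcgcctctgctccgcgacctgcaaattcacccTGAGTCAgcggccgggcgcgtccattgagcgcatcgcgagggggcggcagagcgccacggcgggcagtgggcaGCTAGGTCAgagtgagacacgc
Gclm: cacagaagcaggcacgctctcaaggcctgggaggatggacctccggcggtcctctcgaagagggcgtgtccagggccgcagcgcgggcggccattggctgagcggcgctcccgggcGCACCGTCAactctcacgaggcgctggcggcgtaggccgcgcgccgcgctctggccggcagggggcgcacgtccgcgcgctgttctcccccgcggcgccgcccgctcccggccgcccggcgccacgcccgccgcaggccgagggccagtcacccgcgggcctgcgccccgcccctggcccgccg

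Positions are those of the first base of a match, counted from the start on which the window was built, with no position 0. In Slc7a11 that start is an internal one, 55474 bases inside the upstream end of the gene span given below, and in Gclm it lies 70 bases inside. Slc7a11 has TGATGNAA matches at -66 on its own strand and at -47 on the other. Prdx1 has AP-1 matches at -237 and -131, and the second lies inside its antioxidant response element core at -133, where the motif is on the other strand and reads GCTGAGTCA. Srxn1 has AP-1 matches at -102 and -45 and a core match on the other strand at 29, reading GCTAGGTCA. Gclm has a core match on the other strand at -134, reading GCACCGTCA. The remaining core matches were GCTTTGTCA at -92 in 1 of 3 Txnrd1 windows, built on a start 25255 bases inside the gene span, and TGACTCCGC at -240 in Nfe2l2. The windows of Keap1, Gstm1 and Sqstm1 held none of the 3 motifs.

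The genes lie on 6 chromosomes in GRCm38.p6. Nfe2l2 spans chr2:75675513-75704663 and Srxn1 chr2:152105524-152111376. Slc7a11 spans chr3:50364936-50499087, Gclm chr3:122245487-122267215 and Gstm1 chr3:108012250-108017973. Keap1 spans chr9:21229730-21239332 and Gclc chr9:77754535-77794489. Prdx1 spans chr4:116685599-116700000, Txnrd1 chr10:82833951-82897724 and Sqstm1 chr11:50200152-50210820. Exons of Keap1, Gclm and Sqstm1 overlap those of a gene on the other strand (Gm16754, Gm17494 and Mrnip), Gclm also overlaps the pseudogene Gm6061 on its own strand, and Gstm1 belongs to a family of close copies. Whether the counting used strand is not stated, so reads of these 4 genes may include some from their neighbours or copies.

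The level of each gene is given next for replicates 1 to 3 of each group, in TPM. Nfe2l2 itself stood at 251, 259 and 248 TPM in knockout cells with C. albicans and at 183, 175 and 177 TPM in knockout cells with PBS. The WT libraries stood at 332, 301 and 314 TPM with C. albicans and at 203, 200.4 and 200.4 TPM with PBS. The 4 groups did not overlap, and the knockout was below WT under each treatment.

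Keap1 encodes the adaptor that brings NRF2 to the CUL3 ubiquitin ligase. It stood at 22.99, 21.4 and 21.3 TPM in knockout cells with C. albicans and at 22.96, 23.6 and 24.6 TPM in knockout cells with PBS. Levels in WT cells were 20.6, 25.6 and 25.3 TPM with C. albicans and 26.3, 27.9 and 29.1 TPM with PBS. The WT PBS libraries were the highest and stood clear of the other 3 groups, which overlapped one another.

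Sqstm1 encodes p62, an autophagy receptor that binds KEAP1 and is itself an NRF2 target. It stood at 1875, 1893 and 1919 TPM in knockout cells with C. albicans and at 1611, 1602 and 1635.5 TPM in knockout cells with PBS. In WT cells it stood at 2639, 3411 and 3449.6 TPM with C. albicans and at 1499, 1502 and 1559 TPM with PBS. No 2 groups overlapped, and knockout cells lay above WT cells with PBS and below them with C. albicans.

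Slc7a11 encodes xCT, the exchanger that brings in cystine for glutathione synthesis. It was the lowest of the 10 genes, at 4.62, 4.14 and 3.85 TPM in knockout cells with C. albicans and at 2.23, 2.37 and 2.29 TPM in knockout cells with PBS. The WT libraries stood at 8.82, 16.9 and 16.3 TPM with C. albicans and at 1.93, 1.90 and 1.78 TPM with PBS. These levels rest on 129 to 1546 reads per library, and the 4 groups did not overlap, with WT replicate 1 under C. albicans at 53.0% of the mean of its replicates.

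Gclc and Gclm encode the catalytic and the modifier subunit of glutamate-cysteine ligase, the first and rate-limiting step of glutathione synthesis. Gclc stood at 33.4, 35.6 and 32.7 TPM in knockout cells with C. albicans and at 33.9, 32.2 and 33.8 TPM in knockout cells with PBS. Levels in WT cells were 40.4, 55.7 and 52.2 TPM with C. albicans and 35.4, 36.3 and 34.2 TPM with PBS. WT cells with C. albicans stood alone above the other 3 groups.

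Gclm stood at 102, 102 and 101 TPM in knockout cells with C. albicans and at 110.4, 107 and 104 TPM in knockout cells with PBS. In WT cells it stood at 98.6, 160.0 and 158 TPM with C. albicans and at 97.6, 91.3 and 94.1 TPM with PBS. WT replicate 1 under C. albicans lay below every knockout library, while its replicates lay above them all.

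Gstm1 encodes a glutathione transferase of the mu class, which joins glutathione to electrophiles. It stood at 204, 211 and 195 TPM in knockout cells with C. albicans and at 236, 236 and 222 TPM in knockout cells with PBS. The WT libraries stood at 169, 160.3 and 163 TPM with C. albicans and at 171, 168 and 159 TPM with PBS. Every knockout library lay above every WT library, under both treatments.

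Txnrd1 encodes the cytosolic thioredoxin reductase. It stood at 131, 129 and 131 TPM in knockout cells with C. albicans and at 107, 103 and 107 TPM in knockout cells with PBS. Levels in WT cells were 179.9, 284 and 286 TPM with C. albicans and 100.3, 100.6 and 99.6 TPM with PBS. The 4 groups did not overlap and had the same order as those of Slc7a11 and Sqstm1.

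Prdx1 encodes a peroxiredoxin, which removes peroxides with thioredoxin as its reductant. It stood at 1395, 1429 and 1389 TPM in knockout cells with C. albicans and at 1403, 1448 and 1363 TPM in knockout cells with PBS. In WT cells it stood at 1432, 1774 and 1793 TPM with C. albicans and at 1189, 1219.8 and 1126.5 TPM with PBS. WT cells with PBS lay below the other 3 groups, and the 2 knockout groups overlapped.

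Srxn1 encodes sulfiredoxin, which restores peroxiredoxins that have been overoxidised. It stood at 167, 168 and 175 TPM in knockout cells with C. albicans and at 168, 169 and 168 TPM in knockout cells with PBS. The WT libraries stood at 186, 265 and 263 TPM with C. albicans and at 151, 156 and 156 TPM with PBS. Both knockout groups lay between the WT groups and overlapped each other.

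**Figure D1:**
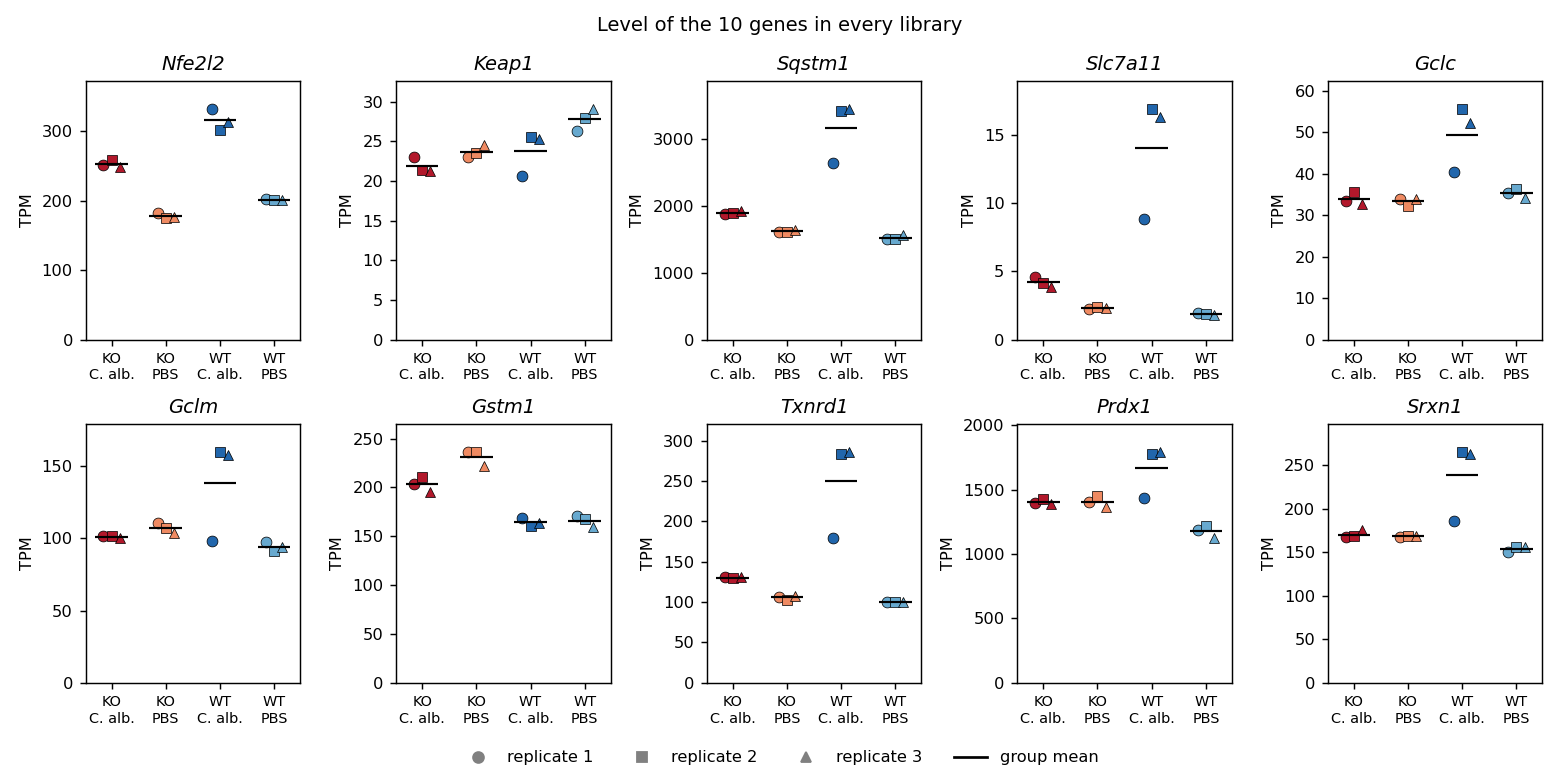
Level in TPM (vertical axis, from 0) of the 10 genes in each of the 12 libraries, with knockout groups left of WT groups, 1 symbol per replicate number and a line at the group mean. For Txnrd1, Sqstm1 and Slc7a11 the WT libraries with C. albicans stand above all others, and replicate 1 of that group is the lowest of its 3, while for Gstm1 all 6 knockout libraries stand above the WT libraries.

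The first comparison was the response to C. albicans within each genotype. In knockout macrophages few of the genes responded: Nfe2l2 rose by 0.50 ± 0.04 on the log2(TPM + 1) scale (SE, adjusted p = 1.35e-06), Slc7a11 rose by 0.66 ± 0.18 (adjusted p = 0.0439), and Gstm1 fell by 0.19 ± 0.04 (adjusted p = 0.0152). In WT macrophages 8 of the 10 rose, led by Slc7a11 at 2.34 ± 0.18 (adjusted p = 5.12e-07), Txnrd1 at 1.28 ± 0.13 (adjusted p = 6.16e-06) and Sqstm1 at 1.048 ± 0.07 (adjusted p = 2.64e-07). Tests were limma's moderated test with Benjamini-Hochberg adjustment over 11280 genes and a threshold of 0.05. RNA of a whole culture was measured, so fewer cells that respond and less RNA per responding cell cannot be told apart.

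In the knockout the counts were 2 rises and 1 fall among the 10 genes, where 3.95% of all genes tested rose and 3.15% fell. In WT they were 8 rises and 1 fall, where 16.1% rose and 28.3% fell. The median log2 fold change of the 10 genes was 0.02 in the knockout and 0.56 in WT, beside -0.04 and -0.07 over all genes in the same genotypes. The 2 responses use separate libraries.

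Among genes of cystine uptake and glutathione synthesis, Gclc had 0.02 ± 0.09 in the knockout and rose by 0.46 ± 0.09 in WT (adjusted p = 0.906 and 0.0012). Gclm had -0.08 ± 0.13 in the knockout and rose by 0.52 ± 0.13 in WT (adjusted p = 0.771 and 0.00708). Of the thioredoxin genes, Prdx1 had 0.00 ± 0.07 in the knockout and rose by 0.49 ± 0.07 in WT (adjusted p = 1 and 8.6e-05). Srxn1 had 0.02 ± 0.10 in the knockout and rose by 0.61 ± 0.10 in WT (adjusted p = 0.948 and 0.000335). For these 4 genes the 95% interval of the knockout response reached at most 0.23, and that of the WT response began at 0.23 or above.

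Txnrd1 and Sqstm1 had intermediate values in the knockout. Txnrd1 had 0.30 ± 0.13 and Sqstm1 0.23 ± 0.07, with adjusted p of 0.176 and 0.0846, although the knockout libraries with C. albicans lay above those with PBS for both genes. Without WT C. albicans replicate 1, which is not part of this comparison but widens the shared spread, the same values had adjusted p of 7.25e-06 and 5.76e-06. The number of genes that rose in the knockout was then 4 of 10, against 5.88% of all genes. The Slc7a11 rise in the knockout was lost without any 1 of the 6 knockout libraries, at 0.60 to 0.71 with adjusted p of 0.0839 to 0.139, and without any 1 of the WT PBS libraries, with adjusted p of 0.0537 to 0.061. The Gstm1 fall was lost without knockout C. albicans replicate 3 or knockout PBS replicate 1 or 2, at -0.17 to -0.16 with adjusted p of 0.0548 to 0.0751.

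Within WT, replicate 1 with C. albicans lowered the mean of most rises. Taken as the share of the mean log2 response of its replicates, its own response was 8.48% for Gclm, 31.7% for Gclc, 35.2% for Srxn1, 47.1% for Prdx1, 55.9% for Txnrd1 and 67.7% to 67.8% for Slc7a11 and Sqstm1. For Nfe2l2 it was 118%. Over the 294 genes with at least a 2-fold rise in the other 2 replicates, the median share was 83.7%, with quartiles of 54.1% and 108%. Without replicate 1 the WT responses were 0.75 for Gclm, 0.60 for Gclc, 0.77 for Srxn1, 0.60 for Prdx1, 1.5 for Txnrd1, 1.17 for Sqstm1 and 2.62 for Slc7a11. There were again 8 rises, where 16.7% of all genes rose. The single fall, of Keap1 at -0.22 (adjusted p = 0.0321), became -0.12 (adjusted p = 0.0986), and it was also lost without WT PBS replicate 2 or 3, at -0.21 and -0.18 (adjusted p = 0.0749 and 0.107).

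**Figure D2:**
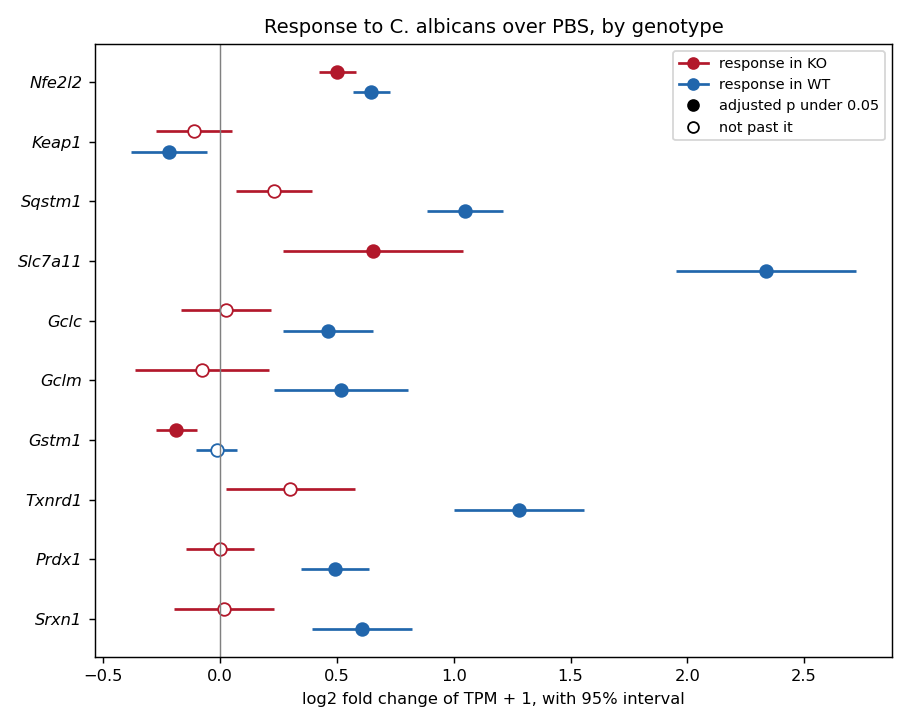
Log2 fold change of TPM + 1 (horizontal axis) for C. albicans over PBS in knockout cells (red, upper point of each gene) and WT cells (blue, lower point), from 3 libraries per group, with 95% intervals and filled points where the adjusted p was under 0.05. The WT point of Slc7a11 is at 2.34 and its knockout point at 0.66, while Nfe2l2 has points at 0.50 in the knockout and 0.65 in WT.

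The authors' deposited table holds 1 comparison by DESeq2, whose values match C. albicans over PBS in WT. In the authors' deposited table Slc7a11 had a log2 fold change of 2.99 with a standard error of 0.24, Txnrd1 1.40 with 0.15 and Sqstm1 1.14 with 0.10. The authors' deposited table also gives Gclm 0.64 (adjusted p = 0.000823), Keap1 -0.14 (adjusted p = 0.174) and Gstm1 0.07 (adjusted p = 0.353). With a pseudocount of 0.1 TPM in place of 1 TPM, the WT response of Slc7a11 computed here was 2.79 and its knockout response 0.84.

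The log2 response in the knockout was 77.7% of that in WT for Nfe2l2, 28.1% for Slc7a11, 23.4% for Txnrd1 and 21.9% for Sqstm1. It was 5.32% for Gclc, 2.55% for Srxn1, 0.02% for Prdx1 and -15.2% for Gclm. Over the 231 genes with at least a 2-fold rise in WT the median share was 47.3%, with quartiles of 28.7% and 66.4%. Those genes were picked by their WT rise and not by any value in the knockout, and Slc7a11, Txnrd1 and Sqstm1 are among them, with 57, 42 and 40 of the 231 below them. Their shares lay below the lower quartile, and that of Nfe2l2, which is not among the 231, lay above the upper quartile.

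**Figure D3:**
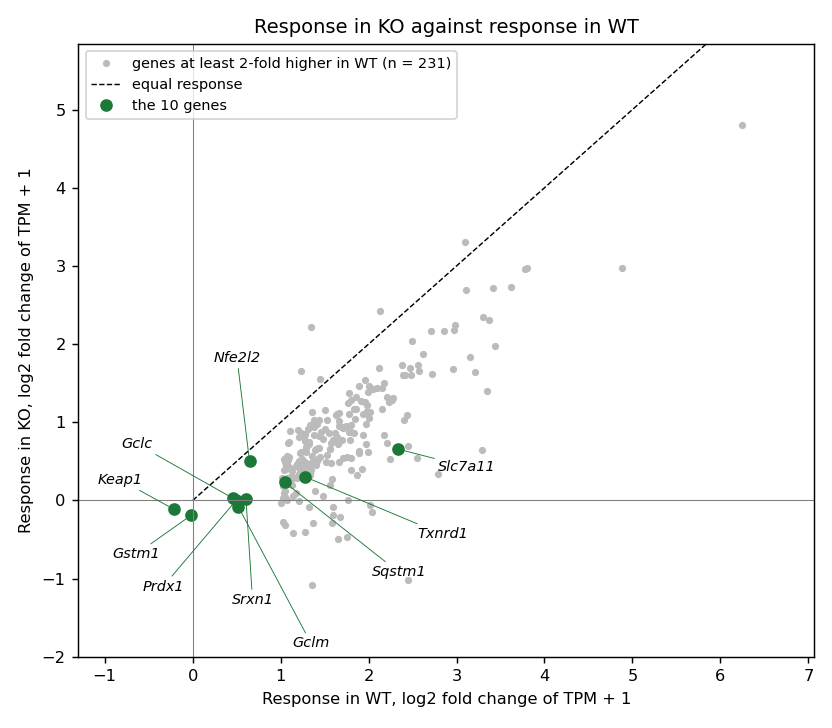
Response to C. albicans in knockout cells (vertical axis) against that in WT cells (horizontal axis), as log2 fold changes of TPM + 1, for the 231 genes with at least a 2-fold rise in WT (grey) and the 10 genes (green), with a dashed line where both are equal. Slc7a11, Txnrd1 and Sqstm1 lie low among the grey points, Nfe2l2 lies near the dashed line, and Gclc, Gclm, Prdx1 and Srxn1 lie close to 0 on the vertical axis.

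The second comparison was knockout against WT at rest, in cells with PBS. Gstm1 was higher in the knockout by 0.48 ± 0.04 (adjusted p = 5.95e-06), with a mean level 139.6% of that in WT, and Prdx1 was higher by 0.25 ± 0.07 (adjusted p = 0.0121), at 119.2%. Nfe2l2 was lower, at -0.18 ± 0.04 (adjusted p = 0.00286), and so was Keap1, at -0.22 ± 0.08 (adjusted p = 0.0418), with 88.5% and 85.4% of the WT level. The other 6 genes did not pass, at 0.20 ± 0.18 for Slc7a11, 0.18 ± 0.13 for Gclm, 0.13 ± 0.10 for Srxn1, 0.09 ± 0.07 for Sqstm1, 0.08 ± 0.13 for Txnrd1 and -0.08 ± 0.09 for Gclc.

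Counted over the 10 genes, 2 were higher, where 6.14% of all genes were, and 2 were lower, where 26.2% were. Their median was 0.11, beside -0.08 over all genes. The knockout and WT libraries with PBS did not overlap in any of the 10 genes. The knockout lay above in 7, where 10.1% of all genes did so, and below in 3 (Nfe2l2, Keap1 and Gclc), where 36.1% did so.

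How many genes passed at rest depended on the libraries that set the spread. With the 6 PBS libraries alone, 5 of the 10 were higher, against 6.27% of all genes, with Srxn1, Gclm and Sqstm1 added at adjusted p of 0.0124, 0.00952 and 0.0196. With all libraries other than WT C. albicans replicate 1, 6 were higher, against 7.67% of all genes. Txnrd1 then passed as well (adjusted p = 0.0319), while Slc7a11 did not (adjusted p = 0.0797). The fold changes are the same in these fits, since the library is in neither PBS group, and they are small, at 1.06-fold for Txnrd1 and Sqstm1, 1.09-fold for Srxn1 and 1.13-fold for Gclm.

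Gene length and scaling moved with this comparison. Across all genes tested the log2 fold change at rest had a Spearman correlation of -0.46 with gene length, as a description, so that short genes were higher and long genes lower in the knockout. Gstm1 and Prdx1 are short, at the 14.5th and 17th percentile of length, and Keap1 and Slc7a11 are long, at the 87.8th and 96.6th. With each library's trend on length removed, Gstm1 was at 0.46 and Prdx1 at 0.24 and both passed, whereas Nfe2l2 was at -0.06 (adjusted p = 0.226) and Keap1 at -0.005 (adjusted p = 0.978). With median-ratio scaling Nfe2l2 was at -0.08 (adjusted p = 0.0872), Keap1 at -0.12 (adjusted p = 0.294) and Gclc turned to 0.02. Keap1 was also lost without any 1 of the knockout PBS libraries, WT PBS replicate 2 or 3, or knockout C. albicans replicate 2 or 3, at -0.24 to -0.18 with adjusted p of 0.0528 to 0.123. Over all genes, 693 were higher and 2951 lower as TPM, and 1607 and 1596 with median-ratio scaling.

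The third comparison was knockout against WT under C. albicans, which uses none of the PBS libraries. Slc7a11 was lower in the knockout, at -1.48 ± 0.18 (adjusted p = 3.74e-05) and 29.9% of the WT mean. Txnrd1 was lower at -0.90 ± 0.13 (adjusted p = 0.000127) and 52.2%, and Sqstm1 at -0.73 ± 0.07 (adjusted p = 1.03e-05) and 59.9%. Also lower were Gclc at -0.52 ± 0.09, Srxn1 at -0.46 ± 0.10, Gclm at -0.42 ± 0.13, Nfe2l2 at -0.32 ± 0.04 and Prdx1 at -0.24 ± 0.07, with adjusted p of 0.000577, 0.00238, 0.0247, 2.54e-05 and 0.0128 in that order. Gstm1 was higher by 0.31 ± 0.04 (adjusted p = 8.06e-05), and Keap1 at -0.11 ± 0.08 did not pass.

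That made 8 of the 10 lower, where 27.5% of all genes were, and 1 higher, where 12.4% were. The median was -0.44, beside -0.05 over all genes. Without WT C. albicans replicate 1 the 8 values were larger except for Nfe2l2, from -1.76 for Slc7a11 to -0.28 for Nfe2l2, and Keap1 passed too (-0.21, adjusted p = 0.0106), giving 9 lower against 26.2% of all genes. Gclm did not pass without any 1 of the knockout C. albicans libraries (-0.42 to -0.41, adjusted p of 0.0565 to 0.0612). Without WT C. albicans replicate 2 or 3, Gclm was at -0.30 and -0.31 (adjusted p = 0.108 and 0.104) and Prdx1 at -0.19 and -0.18 (adjusted p = 0.058 and 0.0577). With the 6 C. albicans libraries alone Prdx1 and Gclm had adjusted p of 0.0549 and 0.0964, and with median-ratio scaling 0.0775 and 0.0632. Across all genes tested the log2 fold change under C. albicans had a Spearman correlation of -0.40 with gene length, as a description. With the length trend removed Slc7a11 was at -1.18 (adjusted p = 0.000665) and Keap1 turned to 0.11.

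**Figure D4:**
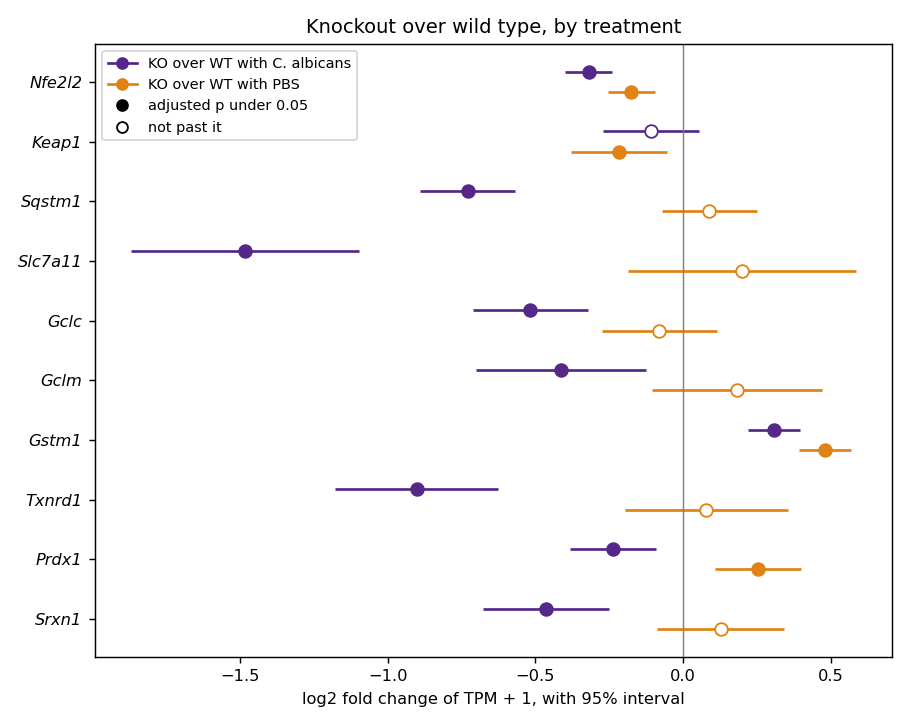
Log2 fold change of TPM + 1 (horizontal axis) for knockout over WT with C. albicans (purple, upper point of each gene) and with PBS (orange, lower point), from 3 libraries per group, with 95% intervals and filled points where the adjusted p was under 0.05. Prdx1 is at -0.24 with C. albicans and at 0.25 with PBS, Slc7a11 is at -1.48 and 0.20, and Gstm1 is right of 0 under both treatments, at 0.31 and 0.48.

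The interaction, which is the knockout response minus the WT response and equally the genotype difference under C. albicans minus that at rest, puts both together. In counts, weaker and stronger name only its sign, negative and positive. A gene that fell less in the knockout thus counts as stronger, and one that fell more counts as weaker. The response was weaker in the knockout for Slc7a11 at -1.68 ± 0.25 (adjusted p = 0.000901), Txnrd1 at -0.98 ± 0.18 (adjusted p = 0.0035), Sqstm1 at -0.82 ± 0.11 (adjusted p = 0.000317), Srxn1 at -0.59 ± 0.14 (adjusted p = 0.0147), Prdx1 at -0.49 ± 0.10 (adjusted p = 0.00468) and Gclc at -0.44 ± 0.13 (adjusted p = 0.038). By limma 0 of the 10 were stronger in the knockout, and also 0 at an unadjusted p under 0.05 and 0 with voom on recovered reads, with 7.53% of all genes stronger, and 6 were weaker, with 6.33% of all genes weaker. The median was -0.54, beside 0.02 over all genes. Gclm at -0.60 ± 0.19 had an adjusted p of 0.0529, Gstm1 at -0.17 ± 0.06 one of 0.0651, Nfe2l2 at -0.14 ± 0.05 one of 0.0853 and Keap1 at 0.11 ± 0.11 one of 0.556.

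Without WT C. albicans replicate 1 the 6 values ran from -1.96 for Slc7a11 to -0.57 for Gclc, and Gclm passed at -0.82 (adjusted p = 2.86e-07), so that 7 were weaker against 9.39% of all genes. Slc7a11, Txnrd1, Sqstm1, Srxn1 and Prdx1 passed under every alternative and without each library in turn. Gclc was lost without each of the other 11 libraries in turn, at -0.47 to -0.35 with adjusted p of 0.0511 to 0.0891, and with no filter on low values, no variance trend or upper-quartile scaling, with adjusted p of 0.0515 to 0.081. Gclm passed with voom on recovered reads (-0.61, adjusted p = 0.0169). Nfe2l2 passed without WT C. albicans replicate 2 (-0.18, adjusted p = 0.0441) and Gstm1 without knockout PBS replicate 3 (-0.20, adjusted p = 0.0488). With median-ratio scaling both passed, at -0.18 and -0.21 (adjusted p = 0.0181 and 0.0234), and both also passed with the length trend removed, at -0.16 and -0.20 (adjusted p = 0.0243 and 0.0343). Gstm1 passed with the replicate number as a block too (adjusted p = 0.041).

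Each interaction was also split into its part at rest, as a share of the interaction, and its part under C. albicans. The shares moved with the scaling, so they are given with their range over 5 other settings (a pseudocount of 0.1 TPM, median-ratio and upper-quartile scaling, the length trend removed and voom on recovered reads) and over the fit without WT C. albicans replicate 1. The part at rest was 11.9% for Slc7a11 (10.2% to 29.1%), 7.99% for Txnrd1 (6.52% to 21.1%) and 10.9% for Sqstm1 (9.41% to 22%). For Srxn1 it was 21.3% (16.6% to 35.8%), and for Gclm, whose interaction did not pass, 30.5% (22.1% to 44.2%). The range of Srxn1 overlaps those of the first 3 genes, and that of Gclm overlaps the range of Slc7a11. In these 5 genes the larger part of the difference lay under C. albicans in each of these settings. For Prdx1 the part at rest was 51.5% (42.4% to 67.6%): the knockout was higher with PBS, lower with C. albicans, and stood at a mean of 1404 TPM with C. albicans and 1405 TPM with PBS. For Gclc it was -18.4% (-18.5% to 6.46%), with a difference at rest near 0 that turned positive with median-ratio scaling or the length trend removed. These shares come from fitted values and carry no test of their own, and the comparison at rest and the interaction share the PBS libraries.

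Gstm1 differed from these genes in sign under C. albicans. Its knockout level was above WT at rest and under C. albicans, by 0.48 and 0.31, and its response was -0.19 in the knockout and -0.01 in WT. The WT value turned to 0.07 with median-ratio scaling and to 0.00 with the length trend removed, neither of which passed. Nfe2l2 and Keap1 were not higher in the knockout under either treatment in the TPM values.

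Other genes of the pathway, in lists chosen with earlier results of these data known, were counted in the same comparisons. Under C. albicans, 12.4% of all genes were higher in the knockout and 27.5% lower. Higher and lower counts by limma were 0 and 9 of 13 NRF2 regulators and partners, and 3 and 2 of 14 thioredoxin genes. They were 4 and 4 of 15 glutathione genes, 5 and 0 of 16 transferase genes, and 6 and 4 of 19 other NRF2 targets. The autophagy genes around Sqstm1 had 4 and 3 of 14, and the superoxide dismutase genes 0 and 1 of 2. Of 14 regulators and partners of NRF2, 13 were tested. At rest 6 were lower in the knockout, where 26.2% of all genes were, led by Mafg, a small MAF partner, at -0.45, and Fbxw11 and Gsk3b, which act in a second route of NRF2 breakdown, at -0.38 and -0.36. Maff, another small MAF, rose by 2.17 in the knockout and by 2.704 in WT, and with Nfe2l1, a relative of NRF2, it was 1 of 2 with a weaker response in the knockout (-0.53 and -0.25, adjusted p = 0.024 and 0.00869), where 6.33% of all genes were weaker. The list's median at rest was -0.20, beside -0.08 over all genes. The counts moved with scaling and length: at rest 2 were higher and 5 lower with median-ratio scaling, against 14.2% and 14.1% of all genes, and 1 was higher and 2 lower with the length trend removed, against 8.27% and 8.23% of all genes, with a list median of -0.02.

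Of 14 further thioredoxin and peroxiredoxin genes tested of 15, 7 were higher and 1 lower in the knockout at rest, against 6.14% and 26.2% of all genes. The list's median was 0.16, beside -0.08 over all genes. Prdx4 of the endoplasmic reticulum was at 0.36, the methionine sulfoxide reductase gene Msrb1 at 0.20, and Txnip, an inhibitor of thioredoxin, was the one lower at -0.48. Thioredoxin itself, Txn1, chosen after its values were seen, was at 0.28. It stood at 442, 428 and 424 TPM in knockout cells with PBS, against 362.5, 369 and 334 TPM in WT cells with PBS. A weaker response in the knockout passed for 1 of the 14, the thioredoxin-like gene Txnl1 (-0.45, adjusted p = 0.00319), a share near the 6.33% of all genes. With median-ratio scaling 2 were weaker, against 8.4% of all genes, and 3 weaker and 2 stronger passed without WT C. albicans replicate 1, against 9.39% and 13.1%.

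Among 15 tested of 21 genes of glutathione synthesis, recycling and use, 3 were higher in the knockout at rest, against 6.14% of all genes, and 5 with median-ratio scaling, against 14.2%. The 3 were the glutathione peroxidase genes Gpx3 at 0.86, Gpx4 at 0.21 and Gpx1 at 0.14. Gpx3, the secreted form, stood at 15.8, 16.0 and 14.7 TPM in knockout cells with PBS, against 8.07, 7.30 and 8.97 TPM in WT cells with PBS, and at 17.4, 17.9 and 16.3 TPM in knockout cells with C. albicans, against 13.9, 16.2 and 15.8 TPM in WT cells with C. albicans. The knockout libraries lay above the WT libraries under both treatments, narrowly so with C. albicans. Responses were weaker in the knockout for Gpx3 (-0.70), the glutaredoxin gene Glrx (-0.63) and the exporter gene Abcc1 (-0.66), which makes 3 of 15, against 6.33% of all genes.

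Of 16 glutathione transferase genes tested of 22, 3 were higher in the knockout at rest, Mgst3 at 0.59, Gstm5 at 0.56 and Mgst1 at 0.24, against 6.14% of all genes. There were 6 without WT C. albicans replicate 1, against 7.67% of all genes, and 6 with median-ratio scaling, against 14.2%. Gstp1 and Gstp2, which are near-identical copies, had positive interactions (0.45 and 0.66, adjusted p = 0.0111 and 0.0117), 2 of 16, against 7.53% of all genes. From PBS to C. albicans their means fell in WT, from 46.14 to 33.95 TPM and from 10.14 to 6.764 TPM. In the knockout the means went from 50.22 to 50.58 TPM and from 8.78 to 9.803 TPM. With median-ratio scaling 2 of the list had a negative interaction, against 8.4% of all genes.

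Of 19 other NRF2 targets tested of 20, 6 were higher in the knockout at rest, led by the ferritin light chain gene Ftl1 at 0.33, the pentose phosphate gene Taldo1 at 0.35 and the haem transporter gene Slc48a1 at 0.27, where 6.14% of all genes were higher. By limma 0 passed for the response in the knockout, with 2 lower at an unadjusted p under 0.05 and 0 called by voom on recovered reads, whereas 7 rose and 5 fell in WT, against 16.1% and 28.3% of all genes, so that the falls are near their share over all genes. With median-ratio scaling the WT counts were 11 and 2, against 22.8% and 18.3%. The haem oxygenase gene Hmox1 stood at 904.5, 908 and 909 TPM in knockout cells with C. albicans and at 843, 822.5 and 872 TPM in knockout cells with PBS. Levels in WT cells were 1018, 1908 and 1962 TPM with C. albicans and 669, 696 and 715 TPM with PBS. It had the order of groups of Slc7a11, Txnrd1 and Sqstm1, with a weaker response in the knockout, at -1.07 (adjusted p = 0.0136).

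Negative interactions were found for 4 of these targets, Hmox1, the malic enzyme gene Me1 (-0.94), Taldo1 (-0.27) and Ftl1 (-0.12). Positive ones were found for 2, Idh1 (0.22) and the ferritin heavy chain gene Fth1 (0.12), against 6.33% negative and 7.53% positive over all genes. Under C. albicans, mean Hmox1 was 907 TPM in the knockout and 1629 TPM in WT, and mean Me1 1.458 and 2.634 TPM. Mean Taldo1 and Ftl1 were higher in the knockout there, at 690.6 against 654.4 TPM and 33220 against 28820 TPM. With PBS these 2 differed more, at 712.7 against 560.6 TPM and 34300 against 27370 TPM. From PBS to C. albicans, mean Idh1 fell from 155.4 to 146.3 TPM in the knockout and from 149.9 to 121.4 TPM in WT. Mean Fth1 went from 25220 to 25790 TPM in the knockout and from 23830 to 22400 TPM in WT. Without WT C. albicans replicate 1 the counts were 12 weaker and 4 stronger, against 9.39% and 13.1% of all genes. The median was then -0.20, against -0.14 with all libraries. With median-ratio scaling 5 were weaker and 0 stronger, against 8.4% and 5.89% of all genes. Of the 2 superoxide dismutase genes tested of 3, Sod2 of the mitochondria was weaker at -0.95 and Sod1 at -0.22, where 6.33% of all genes were weaker. With upper-quartile scaling 1 of the 2 passed. Among 14 autophagy genes around Sqstm1, the receptor gene Optn was weaker (-0.29) and Calcoco1 had a positive interaction (0.34). That is 1 of 14 each way, near the 6.33% negative and 7.53% positive over all genes. From PBS to C. albicans, mean Calcoco1 fell from 41.45 to 39.16 TPM in the knockout and from 45.44 to 33.85 TPM in WT. The interaction of Sqstm1, at -0.82, was larger in size than either.

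Across the 12 libraries the genes most like each member were found by Pearson's r of log2(TPM + 1), as a description over libraries that share 4 groups. Txnrd1 and Sqstm1 were each other's closest gene (0.995), and Slc7a11 was next for both (0.992 with Txnrd1 and 0.994 with Sqstm1). Srxn1 was closest to Hmox1 (0.993) and Hspa1a (0.989), and Gclm to Agpat4 (0.959) and Srxn1 (0.953). Gclc was closest to Rab10 (0.990) and Fscn1 (0.987), and Prdx1 to Ptges3 (0.993) and Esd (0.966). Nfe2l2 was closest to Nlrp3 and Etv3 (0.994 each), Keap1 to Edaradd (0.946) and Psmb10 (0.931), and Gstm1 to Gla (0.953) and Gabarap (0.952). No member of the 10 was among the 2 closest genes of Nfe2l2.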

How the data were processed

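Groups of the 12 polyadenylated RNA libraries follow the genotype and treatment labels. Tools listed per the submitters' processing notes are CASAVA 1.8, cutadapt 2.6, STAR 2.7.5a and DESeq2 1.34.0, with mm10 as the build. The read counter, whether it used strand, and the annotation were not given in the sources used here. Levels were deposited by the authors as TPM, which sum to 1000000 per library. Per the file headers, the authors' DESeq2 output stands in the same table, as a mean signal of normalised reads, a log2 fold change and its standard error, a Wald score and p-values. It was matched to C. albicans over PBS in WT, where the log2 ratio of scaled reads had a median absolute difference of 0.00095 from it over 9313 genes.

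Dividing out length and depth gave whole reads, with 100% of 171648 nonzero TPM values within 0.01 of a whole read, and also the lengths of genes relative to one another. Depth limits precision through counting error only, and no molecular identifiers are named.

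Comparisons were tested on log2(TPM + 1) in limma 3.58.1 (R 4.3.3), with a mean for each group, a variance trend, and 8 residual degrees of freedom from all 12 libraries. The filter kept 11280 genes that had a symbol and reached 1 TPM in 3 or more libraries. The 28 genes left out for want of a symbol held 0.00132% of reads. P-values are two-sided, with Benjamini-Hochberg adjustment over all genes of a comparison and a threshold of 0.05. This scale understates the change of low genes. The fit was also run on simulated data, drawn from the mean WT PBS profile with the same spread in every library. Neither a library that stands apart nor a trend on length was simulated, so the tests were not tried under these.

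Count models on reads, which the design named as alternatives, were not run, and limma voom on the reads recovered from the deposited TPM was added after the data were seen. The other alternatives were a pseudocount of 0.1, no filter on low values, median-ratio and upper-quartile scaling, no variance trend, only the libraries compared, the replicate number as a block, the length trend removed, and each library left out in turn. The 10 genes, the lists and the tests were chosen with earlier results of these data known. From a list, the genes named are those with the 4 smallest p-values in a comparison and any member of a count of 5 or fewer.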

Additional observations from a re-analysis of the deposited data

Results flagged for a closer look

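For 6 of the 10 genes the response to C. albicans differed between the genotypes by the interaction term of limma's test, with adjusted p over 11280 genes. All 6 were weaker in the knockout, where 6.33% of all genes were weaker and 7.53% stronger. The knockout response less the WT response was -1.68 for Slc7a11 (adjusted p = 0.000901), -0.98 for Txnrd1 (adjusted p = 0.0035) and -0.82 for Sqstm1 (adjusted p = 0.000317). It was -0.59 for Srxn1 (adjusted p = 0.0147), -0.49 for Prdx1 (adjusted p = 0.00468) and -0.44 for Gclc (adjusted p = 0.038). In each of the 6 genes WT C. albicans replicate 1 was the lowest of its group, and without it the values ran from -1.96 for Slc7a11 to -0.57 for Gclc.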

How the results depend on the processing

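Of 1040 values of the 10 genes under the alternatives, 938 kept their direction and their side of the threshold, 67 lost their call, 22 gained one and 13 changed sign, all 13 from values that had not passed. The cause was not tested for any of them. Slc7a11, Txnrd1, Sqstm1, Srxn1 and Prdx1 passed for the interaction under every alternative, and Gstm1 and Prdx1 at rest.

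Rises among the 10 genes in the knockout numbered 1 in place of 2 with no filter, with no variance trend and with the length trend removed, and 4 with only the libraries compared. The fall in WT numbered 0 in place of 1 with no filter, either scaling, only the libraries compared and the length trend removed. At rest, higher genes numbered 5 with only the libraries compared, against 6.27% of all genes. Lower genes at rest numbered 1 with no filter, upper-quartile scaling, no variance trend and voom on recovered reads (an alternative chosen after seeing the data), and 0 with median-ratio scaling and the length trend removed.

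Over all genes, falls in the knockout numbered 234 with no filter and 722 with only the libraries compared, in place of 355. With median-ratio scaling, rises and falls numbered 613 and 172 in the knockout, in place of 446 and 355, and 2576 and 2066 in WT, in place of 1814 and 3192. With the same scaling, higher and lower genes in the knockout numbered 1607 and 1596 at rest, in place of 693 and 2951, and 2172 and 2455 under C. albicans, in place of 1402 and 3101. For the interaction it gave 664 and 947, in place of 849 and 714. Upper-quartile scaling gave 1294 and 1853 at rest and 2468 higher under C. albicans, voom gave 1221 and 2441 higher, and the length trend removed gave 928 lower at rest and 1753 lower under C. albicans. No scaling moved the median of all genes by over 0.1.

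Sign changes in the knockout response were Prdx1 at -0.001 with the length trend removed, and without 1 library Prdx1 from -0.022 to 0.022, Srxn1 from -0.006 to 0.028 and Gclc from -0.011 to 0.049. Gstm1 in WT was at 0.066 with median-ratio scaling, 0.004 with the length trend removed and from -0.044 to 0.007 without 1 library. At rest Gclc was at 0.016 with median-ratio scaling and 0.03 with the length trend removed, and Keap1 under C. albicans at 0.105 with the length trend removed.

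Without each library in turn, the counts among the 10 genes ran from 1 to 4 rises and 0 to 1 falls in the knockout, 0 to 1 falls in WT, 2 to 6 higher and 1 to 2 lower at rest, 6 to 9 lower under C. albicans and 5 to 7 negative interactions. The shares over all genes moved too. Without WT C. albicans replicate 1, 5.88% rose in the knockout, in place of 3.95%, and 7.67% were higher at rest, in place of 6.14%. In that fit 26.2% were lower under C. albicans, in place of 27.5%, and 9.39% had negative interactions, in place of 6.33%. Over all genes, falls in the knockout ran from 98 to 824 and positive interactions from 547 to 1473.

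Replicate numbers did not pair the libraries: over 18 same-numbered pairs the correlation of deviations from group means lay between -0.088 and 0.087. With the replicate number as a block, 1 of the 10 rose in the knockout in place of 2. There were 7 negative interactions in place of 6, where 6.33% of all genes had one without the block. The added one was Gstm1 (-0.17, adjusted p = 0.041), whose response was -0.19 in the knockout and -0.01 in WT. Over all genes the block gave 424 rises and 292 falls in the knockout. The tests on reads that the design named were not run. Depth limited Slc7a11 most, with 129 reads in its lowest library, against at least 914 in each of the other 9 genes.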
